A study of Mus musculus with 14 samples.

Results

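The comparison described here set the flushed inner lining of the mouse carotid artery against the arterial wall that remained after the flush, with 4 libraries on each side, 8 of the 14 libraries of the series. The members were chosen by their titles. The flushed side was the 4 libraries titled endothelial-enriched Poldip2-floxed, from littermate controls. The other side was the 4 left-over carotid libraries titled Poldip2-SMC-/-, the libraries whose mean the authors' deposited table gives as its smooth muscle control group. Every one of the 14 libraries came from C57BL/6 mice that were 10 weeks old and ate standard chow. The floxed controls carry loxP-flanked Poldip2 without an active deletion, Poldip2-EC-/- and Poldip2-SMC-/- name its deletion in endothelium and in smooth muscle, and the labels do not name the Cre drivers. Both carotid arteries of a mouse were removed, 150 µL of Qiazol, a lysis reagent, was pushed quickly through the lumen, and total RNA was extracted from the flushings and, separately, from the artery left over. Titles number the 4 libraries of each group as repeats without saying what was repeated, so p-values measure the spread between these libraries, which may be technical. All 17881 genes that passed a filter on low counts were tested, of 35275 in the deposited table.

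An elastic artery has 3 layers. The intima is a sheet of endothelial cells on a basement membrane, in contact with blood, where it makes nitric oxide, holds von Willebrand factor and anticoagulant proteins, and senses flow. The media is made of smooth muscle cells between sheets of elastin, and contracts through smooth muscle actin and myosin. The adventitia is connective tissue with fibroblasts, resident macrophages, nerve endings, small vessels and, around it, fat. Endothelium and smooth muscle act on each other through secreted and membrane-bound signals such as endothelin 1, platelet-derived growth factor B and Notch ligands.

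The libraries held 18267924 to 23287155 counts in the flushed group and 15019891 to 19733086 in the left-over group, and the 10 highest genes took 6.31 to 6.89% and 8.34 to 8.65% of them. Levels are given as CPM per kilobase, read counts scaled to a common library total with TMM and divided by the gene length in kilobases, so that genes can be compared with each other. Differences are log2 fold changes, flushed minus left-over, from edgeR's quasi-likelihood fit, and an adjusted p under 0.05 counted as a call. A second test, glmTreat in the same fit, asked whether a gene differed by more than 2-fold. Means are given ± SD with n = 4 libraries a group.

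Poldip2, the gene deleted in the series, encodes polymerase delta interacting protein 2. Its level was 22.6, 21.4, 23.4 and 28.8 CPM per kilobase in flushed libraries 1 to 4 and 28.6, 27.3, 35.3 and 36.1 in left-over libraries 1 to 4. The left-over libraries titled Poldip2-SMC-/- were therefore not low in the targeted gene. With all 14 libraries scaled together, their mean was 31.1 CPM per kilobase, against 12.8 in the flushed Poldip2-EC-/- libraries and 12.9 in the left-over libraries titled Poldip2-floxed, and their level goes against the label. In the deposited column names, 3 of these 4 libraries carry a number that a flushed floxed library also carries, and what the number marks is not stated. They are called the left-over libraries here, by their fraction, and any effect of genotype on their side of the comparison cannot be told apart from the fraction. The difference in Poldip2 was -0.40 (SE 0.13, edgeR adjusted p = 0.0132), and an exact two-sided permutation test on log2 CPM gave p = 0.0857, where 70 arrangements allow no p under 0.0286. In the fits that left out flushed library 1, 2 or 3 or left-over library 3 or 4 the call was lost (edgeR adjusted p = 0.0976, 0.108, 0.0742, 0.0520 and 0.0516). In the authors' deposited table Poldip2 was 0.36 higher on the log2 scale in the smooth muscle group, with an adjusted p of 0.0813.

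The left-over libraries also held a low level of reads over many genes that the wall is not known to use. Genes for olfactory and vomeronasal receptors, which serve smell and were taken here as a gauge of such reads after the data were seen, had summed levels of 69.2 to 191 CPM in the flushed libraries and 384 to 921 in the left-over libraries. Per kilobase of these genes that was 0.0452 to 0.116 and 0.191 to 0.441 CPM. Of the 3448 tested genes under 1 FPKM in both groups, 2028 were lower and 255 higher in the flushed fraction, and their median log2 fold change was -1.50. Of the 14433 genes at 1 FPKM or more, 4770 were lower and 6351 higher, with a median of 0.17. The part of this background in calls of genes near these levels was not tested.

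Most genes differed between the lining and the wall. Of the 17881 genes, 6606 (36.9%) were higher and 6798 (38.0%) lower in the flushed fraction by edgeR, 13404 (75.0%) in all. More than 2-fold, 2545 (14.2%) were higher and 3638 (20.3%) lower, 6183 (34.6%) in all, and for 12252 (68.5%) the 4 flushed and the 4 left-over libraries did not overlap. The 2-fold split differed with level. At 1 FPKM or more in either group 2449 genes were higher and 2548 lower, and under 1 FPKM in both groups 96 and 1090. The split of all calls depended on the scaling. With TMM the calls were 49.3% higher, with library size alone 35.5% (4748 higher, 8644 lower) and with upper quartile scaling 30.6% (4138 higher, 9393 lower), and the median of all genes was -0.05, -0.42 and -0.54. Differences no larger than these shifts can change their call with the scaling, as with Kdr among the endothelial genes and Synm among the contractile genes below. The authors' deposited table called 13125 of the genes tested here, 12948 of which were also called here, all in the same direction.

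Endothelial identity genes stood far higher in the flushed lining than in the wall that remained. All 23 of the list were higher in the flushed fraction, 22 by more than 2-fold, at a median log2 fold change of 4.46 against -0.05 over all genes tested. Pecam1, an adhesion receptor at endothelial junctions, had 2115, 2049, 2219 and 2205 CPM per kilobase in flushed libraries 1 to 4 and 69.3, 32.2, 27.2 and 117 in left-over libraries 1 to 4, a 35.0-fold ratio of means (log2 fold change 5.13, edgeR adjusted p = 2.5e-05). Every flushed library stood far above every left-over library, and within the left-over group library 4 was highest. Cdh5, the cadherin of endothelial adherens junctions, had 94.5, 93.0, 97.8 and 113 in the flushed libraries and 3.35, 2.02, 1.03 and 4.56 in the left-over libraries. Nos3, the endothelial nitric oxide synthase, had 121, 102, 128 and 127 and 3.33, 1.57, 1.57 and 5.82. These fractions are bulk RNA, in which fewer cells of a type and less RNA per cell cannot be told apart. Vwf, von Willebrand factor, the carrier of factor VIII, averaged 627 ± 77.6 against 12.9 ± 5.47 and Tie1, an orphan receptor that partners Tek, 232 ± 25.0 against 7.02 ± 4.81.

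The list summed to 25795 to 29720 CPM in the flushed libraries and 657 to 1701 in the left-over libraries, so the left-over group kept 3.82% of the flushed mean. Left-over library 4 was the highest of its group here too. Kdr, the main signalling receptor for VEGF-A, was the weakest of the list. Its level was 1.61, 2.08, 1.34 and 1.92 CPM per kilobase in the flushed libraries and 1.21, 1.24, 0.595 and 1.23 in the left-over libraries, and its log2 fold change was 0.70 (edgeR adjusted p = 0.0218), short of the 2-fold test. With library size alone it was 0.34 and with upper quartile scaling 0.21, and neither fit called it. Its paralogs Flt1 and Flt4 were 2.74 and 4.14, at 6.17 ± 1.19 and 13.6 ± 1.49 CPM per kilobase in the flushed libraries. All 3 receptors were below Tek, the angiopoietin receptor, at 431 ± 52.7.

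**Figure D1:**
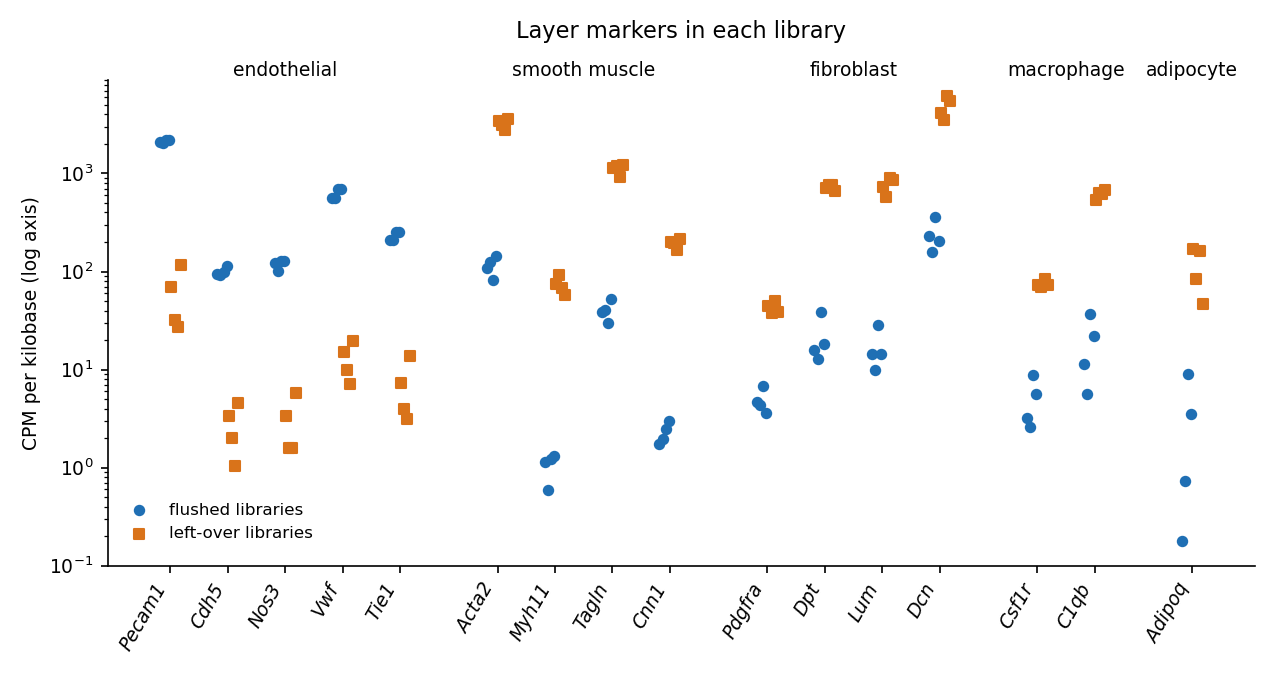
Level of 16 marker genes in each of the 8 libraries, as CPM per kilobase on a log axis; blue circles are the 4 flushed libraries, orange squares the 4 left-over libraries, and genes are grouped as endothelial, smooth muscle, fibroblast, macrophage and adipocyte. The blue and orange points of every gene shown are apart, with endothelial genes higher in the flushed libraries (Pecam1 2049 to 2219 against 27.2 to 117) and the other groups higher in the left-over libraries.

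The transcription factors of endothelium followed the same division. Of 24 listed, 23 were higher in the flushed fraction, 21 by more than 2-fold, at a median log2 fold change of 3.01. Sox17 and Sox18, SoxF factors that act in arterial and lymphatic specification, averaged 67.9 ± 6.27 against 2.33 ± 1.93 and 243 ± 53.9 against 9.46 ± 7.58 CPM per kilobase. Gata2, a zinc finger factor of endothelium and blood, averaged 110.3 ± 7.65 against 3.87 ± 2.28, and Epas1, which encodes HIF-2alpha, 244 ± 17.3 against 10.6 ± 3.71. The ETS factors differed less: Erg was 2.63, Fli1 3.13, Ets1 1.60 and Ets2 0.87 on the log2 scale. Klf2, the factor best known for its induction by laminar flow, averaged 534 ± 96.9 against 72.4 ± 26.5 and Klf4 78.9 ± 19.6 against 25.1 ± 2.99. Hey1, a Notch target, was at 2.43 ± 1.01 against 2.76 ± 0.575 and was the factor of the list that did not pass (edgeR adjusted p = 0.555), while Hey2 was 2.05. Zfp366 had the largest log2 fold change of the list, 4.96, at a low level of 2.61 ± 0.699 in the flushed libraries.

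The promoter of Tie1 is shown because it carries the letters that RBPJ, the DNA-binding partner of Notch, recognises, and Tie1 is among the clearest endothelial genes of the comparison. The sequence is from RefSeq on GRCm38.p6, chr4:118489800-118490099, minus strand, 250 bases before to 50 after the annotated start, and capitals mark GTGGGAA, here on the opposite strand, 16 bases before the start.
Tie1 promoter: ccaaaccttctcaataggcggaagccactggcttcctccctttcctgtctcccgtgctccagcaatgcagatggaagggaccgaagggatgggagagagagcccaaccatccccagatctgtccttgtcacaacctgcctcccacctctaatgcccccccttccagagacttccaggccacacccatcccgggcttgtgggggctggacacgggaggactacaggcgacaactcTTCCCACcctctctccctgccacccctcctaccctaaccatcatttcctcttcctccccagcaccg
Of the 10 endothelial identity genes with a promoter in the RefSeq table, Tie1 and Kdr held GTGGGAA on either strand, against 6.32% of all 17631 promoters matched and 6.34% of those of genes tested. Among genes more than 2-fold higher it was in 5.66% and among those more than 2-fold lower in 6.54%.

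Genes typical of arterial endothelium were mostly higher in the lining. Of 24 listed, 21 were higher in the flushed fraction, 20 by more than 2-fold. Gja5 and Gja4, the connexins of arterial endothelial gap junctions, averaged 528 ± 119 against 15.7 ± 12.3 and 143 ± 50.2 against 6.62 ± 3.02 CPM per kilobase. Gja5 was highest in flushed library 4, whose 704 stood above the others, of which the nearest had 486. Efnb2, the ephrin that marks arteries, averaged 186 ± 23.1 against 6.03 ± 2.58, Bmx, a Tec family kinase of arterial endothelium, 362 ± 9.53 against 11.1 ± 9.41, and Dll4, the Notch ligand, 10.2 ± 1.47 against 0.420 ± 0.137. Dll1, another Notch ligand, was at 111 ± 22.9 against 2.90 ± 2.60 and so stood above Dll4 in the carotid lining. Without left-over library 4, the one with the most endothelial RNA of its group, the log2 fold changes of Gja5, Bmx and Dll1 went from 5.07, 5.02 and 5.24 to 5.72, 5.79 and 6.11. Cxcr4, the CXCL12 receptor found on growing arteries, was the exception at -2.25, with 0.220 ± 0.114 against 1.05 ± 0.431, while the scavenging receptor Ackr3 was at 413 ± 49.0 against 184 ± 60.9. Fbln5, an elastic fibre protein on the list, did not pass, at 239 ± 65.4 against 217 ± 27.2 (log2 fold change 0.14, edgeR adjusted p = 0.498).

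Genes of venous, capillary and lymphatic endothelium mostly went the other way. Of 16 venous and capillary genes tested, 12 were lower in the flushed fraction and 4 higher, with a median of -2.53, against 38.0% and 36.9% of all genes tested. The list summed to 397 to 517 CPM in the flushed libraries and 399 to 984 in the left-over libraries, so the sums overlapped. Nr2f2, the factor of venous identity known as COUP-TFII, was at 0.520, 0.261, 0.351 and 0.440 CPM per kilobase in the flushed libraries and 7.57, 6.27, 9.30 and 9.15 in the left-over libraries. Gpihbp1, the capillary anchor of lipoprotein lipase, was -6.00 and Ackr1, the chemokine receptor of venules, -2.90. Fabp4 and Cd36, which capillaries share with adipocytes and macrophages, averaged 24.7 ± 22.0 against 615 ± 327 and 2.64 ± 1.33 against 51.1 ± 18.2. The 4 higher genes were Ephb4, the receptor of ephrin B2 named for veins (3.04), Plvap (2.57), Kcne3 (2.30) and the glucose transporter Slc2a1 (1.31). Of 8 lymphatic genes, 7 were lower, and Flt4 was higher at 4.14. Both lists held 2 genes under 1 FPKM in both groups, a level at which 58.8% of tested genes were lower. Prox1, the factor that sets lymphatic identity, was at 0.141 ± 0.0617 in the left-over libraries, below their olfactory receptor level of 0.191 to 0.441, while Lyve1, which macrophages also express, was at 72.9 ± 14.3.

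Contractile genes of smooth muscle were mostly lower in the flushed fraction. Of 23 contractile genes, 17 were lower, 15 by more than 2-fold, 3 were higher and 3 did not pass, and the median was -3.81. Acta2, smooth muscle alpha-actin, had 108, 125, 81.7 and 143 CPM per kilobase in flushed libraries 1 to 4 and 3450, 3154, 2749 and 3608 in left-over libraries 1 to 4 (log2 fold change -4.82, edgeR adjusted p = 7.0e-09). The groups did not overlap, and the lowest left-over library was 19.2 times the highest flushed library. Myh11, smooth muscle myosin heavy chain, had 1.13, 0.591, 1.24 and 1.32 in the flushed libraries and 75.4, 93.2, 68.2 and 58.1 in the left-over libraries. Cnn1, calponin 1, was at 2.30 ± 0.562 against 194 ± 20.5, Tagln, transgelin, at 40.3 ± 9.06 against 1117 ± 133, and Myl9, the regulatory light chain that myosin light chain kinase phosphorylates, at 22.0 ± 3.93 against 1096 ± 109. The list summed to 2659 to 3356 CPM in the flushed libraries, 22.2% of the left-over mean. Its defining members held less, since the flushed mean was 3.53% of the left-over mean for Acta2, 1.45% for Myh11, 3.61% for Tagln and 1.19% for Cnn1, while Tpm1 and Flna, which other cells also use, had flushed means at 84.6% and 112% of the left-over means.

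The 3 contractile list genes that were higher in the flushed fraction were Vcl, Synm and Sncg. Vcl, vinculin, which links integrins and cadherins to actin in many cells, had 47.7, 43.1, 38.3 and 40.3 CPM per kilobase in the flushed libraries and 18.0, 14.7, 12.2 and 14.5 in the left-over libraries (log2 fold change 1.51, edgeR adjusted p = 9.6e-07). Sncg, gamma-synuclein, was at 87.0 ± 10.6 against 41.8 ± 12.1, and Synm, synemin, at 3.32 ± 0.326 against 2.37 ± 0.787, a difference of 0.49 that turned to -0.02 under upper quartile scaling and lost its call without flushed library 1 or left-over library 1, 3 or 4 (edgeR adjusted p = 0.0525, 0.0848, 0.0860 and 0.0789). Tpm1, Flna and Pln did not pass, at -0.24, 0.16 and -0.35.

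Promoters of Myl9 and Vcl are shown because they were the only 2 of 20 contractile genes with a RefSeq promoter whose window held a CArG box, the element bound by serum response factor that marks smooth muscle genes, and because the genes differed in opposite directions. Both sequences are from RefSeq on GRCm38.p6, plus strand, chr2:156775214-156775513 for Myl9 and chr14:20929148-20929447 for Vcl, each 250 bases before to 50 after the annotated start. Capitals mark the CArG box, whose first base lies 161 bases before the start in Myl9 and 227 in Vcl.
Myl9 promoter: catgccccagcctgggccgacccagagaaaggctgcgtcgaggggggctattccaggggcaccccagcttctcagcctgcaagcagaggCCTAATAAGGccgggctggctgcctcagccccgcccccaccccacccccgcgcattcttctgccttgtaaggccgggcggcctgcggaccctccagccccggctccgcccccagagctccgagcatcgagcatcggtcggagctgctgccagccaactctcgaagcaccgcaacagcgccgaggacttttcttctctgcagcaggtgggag
Vcl promoter: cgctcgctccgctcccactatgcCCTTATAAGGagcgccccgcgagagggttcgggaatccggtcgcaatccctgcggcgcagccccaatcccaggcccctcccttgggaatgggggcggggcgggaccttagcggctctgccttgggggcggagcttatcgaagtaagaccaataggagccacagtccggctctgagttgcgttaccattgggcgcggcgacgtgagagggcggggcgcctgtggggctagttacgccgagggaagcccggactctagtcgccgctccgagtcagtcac
The CArG box was in 1.46% of all promoters matched, in 1.33% of those of genes tested, in 1.20% of the 1838 promoters of genes more than 2-fold higher and in 1.59% of the 2324 of genes more than 2-fold lower. A window without the box says only that its letters were not found there.

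Regulators of smooth muscle and fibroblast genes were also unevenly placed. Myocd, the coactivator that switches on contractile genes, averaged 0.313 ± 0.0493 against 4.75 ± 2.05 CPM per kilobase and was -3.91. Srf, its DNA-binding partner, did not pass, at 5.95 ± 0.932 against 6.05 ± 1.08, and neither did the related coactivator Mkl1, at 4.04 ± 0.606 against 4.75 ± 0.736. Mkl2, the other myocardin-related coactivator, had 29.2, 31.0, 31.4 and 28.5 in the flushed libraries and 2.80, 2.17, 1.76 and 2.60 in the left-over libraries, a log2 fold change of 3.69. Gata6, often used as a factor of smooth muscle, was likewise higher in the flushed fraction, at 123 ± 4.11 against 21.2 ± 3.80. Of the 24 mesenchymal regulators tested, 15 were lower by more than 2-fold, with Foxs1 (-5.88), Prrx2 (-5.15) and Twist2 (-4.84) lowest. The 5 higher were Mkl2, Gata6, Foxc1 (2.56), Twist1 (1.83) and Snai2 (0.88). Among 13 pericyte and mural genes, 9 were lower, including Kcnj8 and Abcc9, the pore and sulphonylurea subunits of the vascular ATP-sensitive potassium channel, at 2.95 ± 1.08 against 106 ± 27.6 and 2.40 ± 1.22 against 31.5 ± 3.11. Pdgfrb, the receptor that mural cells use to answer endothelial PDGF-B, did not pass, at 20.1, 15.9, 29.3 and 38.5 in the flushed libraries and 22.6, 21.1, 28.6 and 23.7 in the left-over libraries (log2 fold change 0.11, edgeR adjusted p = 0.690).

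Many families of paralogs had members on both sides. Of 24 families examined, 16 had a member more than 2-fold higher and another more than 2-fold lower in the flushed fraction. With 14.2% and 20.3% of all genes past that test, groups of unrelated genes can hold both too, and their share was not computed. Muscle myosin Myh11 was -6.11 while the non-muscle heavy chain Myh9 was 2.92, at 92.9 ± 9.34 against 12.3 ± 2.12 CPM per kilobase, so Myh9 was the main non-sarcomeric heavy chain of the lining and Myh11 that of the wall. Calponins followed in order, with Cnn1 at -6.39, Cnn2 at -2.43 and Cnn3 at 1.14. Tpm2 was -5.93 and Tpm3 1.02. Tagln was -4.79 and Tagln2 0.39, but Tagln2 turned to -0.10 under upper quartile scaling.

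Membrane proteins of caveolae, junctions and adhesion were divided as well. Cav1 and Cav2, which build caveolae in most cells, averaged 1890 ± 262 against 286 ± 51.8 and 469 ± 45.6 against 67.5 ± 8.12 CPM per kilobase, whereas the muscle caveolin Cav3 was at 0.199 ± 0.152 against 15.4 ± 1.22. Gja1, the connexin that smooth muscle and fibroblasts share, was -2.80 against 5.07 for Gja5. Cdh5 and Cdh13 were 5.18 and 4.13, and Cdh11, a cadherin of fibroblasts, -4.14. The junctional adhesion molecules F11r, Jam2 and Esam were 4.42, 2.90 and 4.55, and Jam3 was -2.25. Itga8 and Itga7, integrin chains of smooth muscle, were -5.87 and -5.18, while Itga3, Itga9 and Itga6 were 3.83, 2.77 and 2.75. Thbs1, thrombospondin 1, had the highest log2 fold change of any gene named by the rule, 5.76, and its relative Comp was -5.18. Thbs1 was at 507, 515, 556 and 904 in flushed libraries 1 to 4, highest in library 4, and 18.4, 6.80, 3.19 and 17.2 in the left-over libraries.

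**Figure D2:**
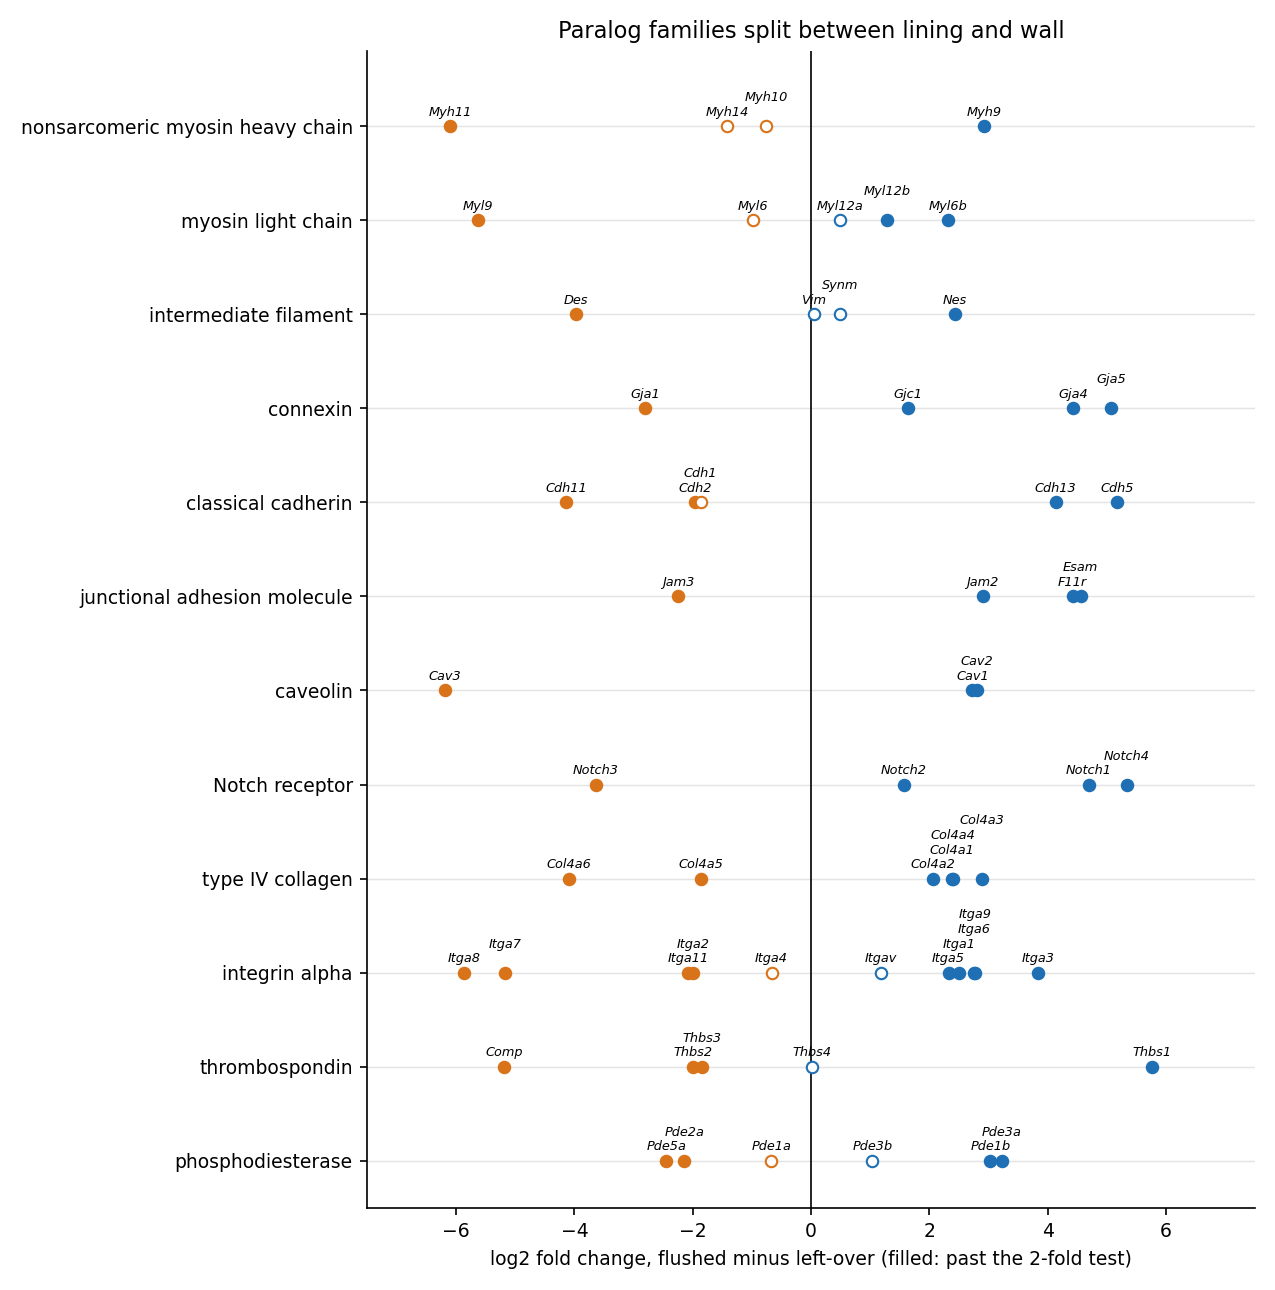
Log2 fold change, flushed minus left-over, of the members of 12 paralog families, 1 row a family; filled points passed the 2-fold test, open points did not, and blue and orange mark higher and lower in the flushed fraction. The 12 were taken from the 16 families with members past the test in both directions, so filled points lie on both sides of zero in each row, as with Myh11 (-6.11) and Myh9 (2.92).

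Fibroblast genes of the adventitia were all lower in the flushed fraction. Each of the 18 listed was lower by more than 2-fold, with a median of -3.57. Dcn, decorin, the small proteoglycan that coats collagen fibrils, had 229, 158, 362 and 204 CPM per kilobase in flushed libraries 1 to 4 and 4169, 3492, 6114 and 5449 in left-over libraries 1 to 4. Flushed library 3 was the highest of its group, though still far below the lowest left-over library. Lum, lumican, was at 16.7 ± 7.91 against 766 ± 148, Dpt, dermatopontin, at 21.4 ± 11.6 against 724 ± 46.0, and Pdgfra, the receptor that marks fibroblasts, at 4.84 ± 1.38 against 42.7 ± 5.72. Pi16, a marker of adventitial fibroblasts, averaged 134 ± 41.3 against 1309 ± 97.5, so 10.3% of the left-over level was in the flushed libraries, against 2.95% for Dpt. The list summed to 2756 to 5676 CPM in the flushed libraries, 9.25% of the left-over mean, and flushed library 3 held the 5676.

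Macrophage genes were lower in the flushed fraction throughout. All 13 tested were lower, 12 by more than 2-fold, with a median of -4.13. C1qb, a chain of complement C1q made by resident macrophages, had 11.4, 5.68, 37.2 and 22.0 CPM per kilobase in the flushed libraries and 531, 634, 624 and 685 in the left-over libraries. Csf1r, the receptor macrophages need for survival, was at 5.05 ± 2.77 against 74.9 ± 5.95 and Lyz2, lysozyme, at 97.2 ± 66.4 against 2216 ± 402. Of 16 genes of other leukocytes, 10 were lower and none higher. Mast cell protease genes Cma1, Mcpt4 and Tpsb2 were -4.76, -4.95 and -4.61, at 19.2 ± 6.54, 12.8 ± 4.99 and 19.2 ± 8.79 in the left-over libraries. Cd3e, a chain of the T cell receptor complex, was low on both sides, at 0.122 ± 0.0707 against 0.721 ± 0.242. The neutrophil genes S100a8 and S100a9 did not pass, at 7.35 ± 7.10 against 6.95 ± 3.90 and 7.20 ± 6.13 against 7.24 ± 4.15. Of 13 red cell and platelet genes, 7 were lower, 3 by more than 2-fold, and 1 higher, against 38.0%, 20.3% and 36.9% of all genes tested. With the 2 left-over libraries titled Poldip2-floxed 4 were lower, and the median of the list went from -1.31 to -0.10. Haemoglobin Hba-a1, which has a near-identical copy that could share its reads, was at 366 ± 177 against 935 ± 508, and its call was lost when any library but flushed library 1 or left-over library 1 or 2 was left out (edgeR adjusted p = 0.0613 to 0.117). The platelet chemokine Pf4, which macrophages also make, was at 16.9 ± 12.4 against 596 ± 41.4, and Gp1ba, a chain of the platelet receptor for von Willebrand factor, was the higher gene, at 5.59 ± 1.93 against 0.337 ± 0.148.

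Fat genes were lower in the flushed fraction and varied among the left-over libraries. Of 12 white adipocyte genes, 11 were lower in the flushed fraction, and of 10 brown adipocyte genes tested, 9. Adipoq, adiponectin, was at 0.179, 0.726, 8.93 and 3.54 CPM per kilobase in the flushed libraries and 169.9, 83.4, 161 and 46.4 in the left-over libraries. The groups did not overlap, although left-over library 4 had the least of its group, and without flushed library 3 the log2 fold change of Adipoq went from -5.13 to -6.17. The white list summed to 1203 CPM in that library and up to 3737 in the others. Ucp1, the uncoupling protein of brown fat, was at 0.281, 0.872, 0.275 and 0.153 in the flushed libraries and 14.2, 1.70, 4.12 and 5.05 in the left-over libraries. Pnpla2, a lipase that many cells use, did not pass, at 91.6 ± 9.09 against 79.3 ± 21.1.

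Extracellular matrix genes lay on both sides, as genes in general did. Of 22 elastic fibre genes, 8 were higher in the flushed fraction, 7 by more than 2-fold, and 12 lower, 11 by more than 2-fold. Over all genes tested, 36.9% were higher and 38.0% lower, 14.2% and 20.3% by more than 2-fold. Eln, elastin, was higher in the flushed fraction, with 1595, 1069, 1843 and 2070 CPM per kilobase in flushed libraries 1 to 4 and 337, 364, 298 and 311 in left-over libraries 1 to 4 (log2 fold change 2.33, edgeR adjusted p = 7.7e-07). The contractile genes beside it in the media were far lower there, as given above. Ltbp4, a latent TGF-beta binding protein that guides elastin assembly, averaged 1679 ± 133 against 161 ± 15.9, and Fbln2, fibulin 2, 592 ± 121 against 74.7 ± 6.22. Lox, the enzyme that crosslinks elastin and collagen, was 1.86, and Emilin1 1.89. Mfap4, Loxl2 and Fbln1 were lowest, at -6.06, -4.35 and -3.91. Fbn1, fibrillin 1, did not pass, at 16.2 ± 3.22 against 21.0 ± 3.90 (edgeR adjusted p = 0.0609), but was called lower without flushed library 3 or left-over library 4 (edgeR adjusted p = 0.0354 and 0.0264).

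Basement membrane genes were split by chain. Of 23 genes, 12 were higher and 8 lower in the flushed fraction, against 36.9% and 38.0% of all genes tested. Lama5, the laminin chain of mature endothelium, was 4.11, and Lama4, the other endothelial chain, 0.85, at 18.0 ± 2.12 against 1.04 ± 0.129 and 25.9 ± 0.836 against 14.3 ± 2.40 CPM per kilobase. Lama2, the chain of muscle, was -2.33. Hspg2, perlecan, averaged 45.8 ± 7.75 against 2.81 ± 0.552 and Agrn, agrin, 27.2 ± 2.98 against 2.53 ± 0.260. Type IV collagen divided by gene pair: Col4a1 and Col4a2 were 2.39 and 2.06, Col4a3 and Col4a4 2.89 and 2.40, and Col4a5 and Col4a6 -1.86 and -4.10. The genes of each pair lie head to head in the genome.

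Fibrillar collagens and small proteoglycans were mostly genes of the wall. Of 15 collagen genes, 11 were lower, all by more than 2-fold, and 3 were higher. Col3a1 averaged 112 ± 58.4 against 1218 ± 257 CPM per kilobase and Col1a1 34.1 ± 22.7 against 247 ± 74.0. Col8a1, a short-chain collagen that endothelium secretes, went the other way at 3.46, with 20.6 ± 8.82 against 1.88 ± 0.251. Of 13 proteoglycan genes, 11 were lower. Fmod, fibromodulin, had the lowest log2 fold change of the genes at 10 FPKM or more that the rule for named genes ranked, -8.01, with 0.685, 0.513, 0.641 and 0.386 in the flushed libraries and 115, 129, 159 and 168 in the left-over libraries. Bgn, biglycan, close kin of decorin, was instead higher in the flushed fraction, at 1166 ± 156 against 471 ± 33.4.

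Pairs of signals and receptors were laid out across the boundary. For 24 signalling axes, 34 of 63 genes counted on the source side, ligands and their enzymes, were higher in the flushed fraction and 24 lower. On the receiver side 40 of 72 counted were higher and 23 lower, beside 36.9% and 38.0% of all genes tested. These totals missed a few tested genes that have alternative names. The nitric oxide and natriuretic peptide receivers tested were 7 with 5 lower, counted as 5 with 3. The VEGF sources tested were 5 with 3 lower, counted as 4 with 2. The axes had no common direction. In some, the source was in the lining and the receiver in the wall. Edn1, the precursor of endothelin 1, had 196, 229, 238 and 159 CPM per kilobase in the flushed libraries and 12.7, 9.29, 5.78 and 16.5 in the left-over libraries. Its receptors Ednra and Ednrb were -3.97 and -3.18, at 0.678 ± 0.0722 against 10.6 ± 1.73 and 1.20 ± 0.944 against 10.8 ± 3.54. Nos3 was 5.27, and the soluble guanylate cyclase subunits Gucy1a3 and Gucy1b3, which nitric oxide activates, were -3.45 and -3.97, although the natriuretic peptide receptors Npr1 and Npr2, which make cyclic GMP themselves, were 2.28 and 1.27. Pde5a, which breaks down the cyclic GMP they make, was -2.45. Ptgs1, cyclooxygenase 1, was 2.58, while the prostacyclin receptor Ptgir was -4.91 and the thromboxane receptor Tbxa2r -3.23, and thromboxane synthase, Tbxas1, was lower at -3.63. Csf1, the macrophage growth factor, averaged 154 ± 19.6 against 40.6 ± 2.55 and its receptor Csf1r 5.05 ± 2.77 against 74.9 ± 5.95. The other ligand of that receptor, Il34, went the other way at -3.12, with 0.193 ± 0.0969 against 1.69 ± 0.785. The angiotensin axis had sources on both sides. Ace, angiotensin-converting enzyme, was at 455 ± 112 against 50.7 ± 7.17 while Agt, angiotensinogen, was -4.03, at 0.0358 ± 0.0275 against 0.665 ± 0.388. The left-over level of Agt was close to the olfactory receptor level of those libraries, 0.191 to 0.441. The angiotensin receptor Agtr1a was at 0.372 ± 0.103 against 1.85 ± 0.361, and Agtr1b had no count in any flushed library and 0.898, 1.06, 1.49 and 0.519 in left-over libraries 1 to 4.

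In other axes the order was the reverse. Adm, adrenomedullin, was -3.60, while its receptor subunits Calcrl and Ramp2 were 3.41 and 2.25, at 55.7 ± 11.2 against 5.25 ± 0.717 and 462 ± 91.4 against 97.0 ± 25.9 CPM per kilobase. Ramp1, which turns Calcrl into the receptor for the calcitonin gene-related peptide of sensory nerves, was -5.86. Angpt4 and Angpt2, ligands of Tek, were -3.97 and -1.34, and Angpt1 was 1.16 at 3.08 ± 0.437 against 1.38 ± 0.418. Wnt2, Wnt5a and Wnt11 were -3.75, -3.92 and -3.08, and the receptors Fzd6 and Fzd4 5.19 and 2.24, with Wnt4 and Fzd1 not past the test. Fgf1 and Fgf10 were -3.34 and -2.60, and Fgfr3 and Fgfr4 5.04 and 3.71, the latter at only 4.34 ± 0.791 in the flushed libraries. The other FGF receptors did not follow, with Fgfr2 at -2.36 and Fgfr1 not past the test at 41.5 ± 4.94 against 37.5 ± 3.78, though called lower with library size alone and with upper quartile scaling.

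For the Notch and ephrin axes most genes of both sides were higher in the lining. For BMP, sphingosine 1-phosphate and PDGF most sources were higher too, but only 2 of 4, 1 of 3 and 0 of 2 receivers. Of the 16 Notch pathway genes tested, 13 were higher, among them the ligands Dll1, Dll4, Jag1 and Jag2 and the receptors Notch1 (4.70) and Notch4 (5.33). The 2 lower were Notch3, the receptor of smooth muscle, at -3.64, and its target Heyl at -3.84, and Notch3 was at 0.0672 ± 0.0305 against 0.845 ± 0.449 CPM per kilobase. The left-over level of Notch3 was close to the olfactory receptor level of those libraries, 0.191 to 0.441. Bmp4 and Bmp6 averaged 631 ± 100.3 against 35.2 ± 13.1 and 872 ± 101 against 28.1 ± 21.2, and the receptor chains Bmpr2 and Acvrl1 were 3.11 and 1.76. Bmp2 and the receptor chain Bmpr1b were lower, at -1.66 and -4.30. Spns2, the exporter of sphingosine 1-phosphate, was 4.20 and the endothelial receptor S1pr1 4.38, while S1pr3 and S1pr2 were -3.56 and -1.84. Efnb2 was 4.94 and Ephb4, its receptor, 3.04, while Epha3 was -3.86. Pdgfb, platelet-derived growth factor B, was 4.42, at 23.6 ± 0.822 against 1.09 ± 0.615, and Pdgfd averaged 169.9 ± 11.6 against 31.8 ± 3.14, while Pdgfra was -3.14 and Pdgfrb did not pass.

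**Figure D3:**
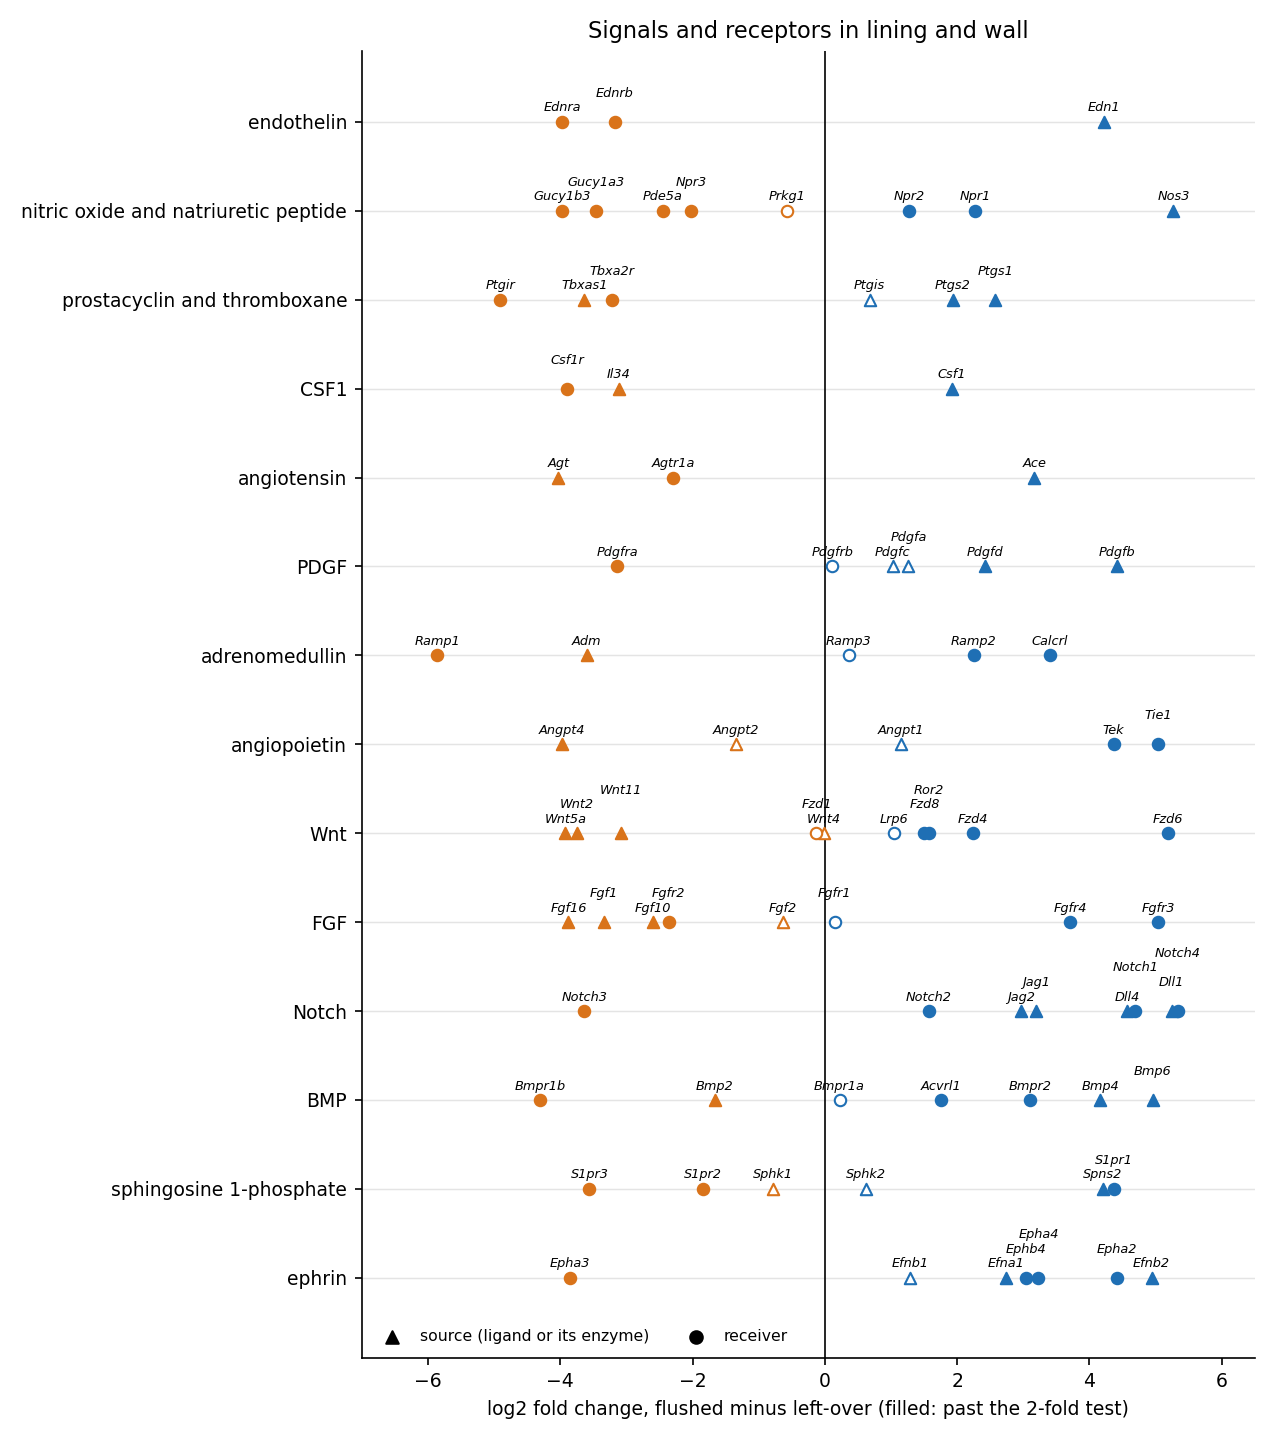
Log2 fold change, flushed minus left-over, of source genes (triangles) and receiver genes (circles) of 14 signalling axes, 1 row an axis; filled marks passed the 2-fold test and open marks did not, and Agtr1b, with no count in the flushed libraries, is not drawn. Endothelin and nitric oxide have their source on the right and most receivers on the left (Edn1 4.22, Ednra -3.97), adrenomedullin and Wnt have the reverse, and Notch and BMP have most of both on the right.

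Ion channels and calcium stores differed by subunit. Of 14 potassium channel genes, 7 were higher and 7 lower in the flushed fraction, against 36.9% and 38.0% of all genes tested. Kcnn4 and Kcnn3, the calcium-activated channels of endothelial hyperpolarisation, averaged 84.0 ± 16.6 against 3.96 ± 2.54 and 4.60 ± 0.531 against 0.372 ± 0.0721 CPM per kilobase. Kcnma1 and Kcnmb1, the pore and beta subunit of the large-conductance channel of smooth muscle, were -3.43 and -5.82, and Kcnj8 was -5.18. Of 24 calcium handling genes, 12 were higher and 12 lower, beside the same shares of all genes, 36.9% and 38.0%. Atp2a3, the SERCA3 pump of endothelium and blood cells, averaged 324 ± 52.1 against 12.9 ± 6.42, and Atp2a2, the SERCA2 pump, 88.8 ± 27.4 against 52.5 ± 14.4. The 3 inositol trisphosphate receptors were higher, with Itpr3 at 4.32, Itpr2 at 3.06 and Itpr1 at 2.17. Trpv4 and Piezo1, channels that open with osmotic or mechanical stimuli, averaged 83.0 ± 12.9 against 10.2 ± 1.99 and 23.5 ± 1.76 against 1.99 ± 0.207. The voltage-gated channel gene Cacna1c was -2.04, but at 0.766 ± 0.374 in the left-over libraries it was close to their olfactory receptor level.

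Genes that set how blood meets the wall were found on both sides. Of 17 coagulation and fibrinolysis genes, 9 were higher, all by more than 2-fold, and 3 did not pass. The other 5 were lower, 2 of them by more than 2-fold. Of all genes tested, 36.9% were higher and 38.0% lower. Thbd, thrombomodulin, averaged 354 ± 33.6 against 102 ± 12.6 CPM per kilobase and Procr, the protein C receptor, 307 ± 48.4 against 72.8 ± 4.52. Entpd1 and Nt5e, which turn ATP to adenosine in sequence, averaged 91.8 ± 15.6 against 20.0 ± 0.928 and 199 ± 33.0 against 7.74 ± 4.51. F3, tissue factor, which starts clotting when blood leaves a vessel, was the reverse, with 4.34, 4.65, 7.70 and 7.44 in flushed libraries 1 to 4 and 207, 218, 491 and 303 in left-over libraries 1 to 4, without overlap. Serpine2, protease nexin 1, was -5.44, and the plasminogen activator Plat did not pass, at 133 ± 27.8 against 112 ± 23.6, and was called higher without left-over library 3 (log2 fold change 0.43). Of 20 genes of the response to flow and its disturbance, 14 were higher and 4 lower. The leukocyte adhesion genes Vcam1, Icam1 and Selp averaged 552 ± 29.2 against 24.0 ± 9.88, 195 ± 29.1 against 16.5 ± 5.55 and 227 ± 19.3 against 6.17 ± 3.64, and Sele 12.4 ± 5.19 against 1.40 ± 0.515. Ccl2, the monocyte chemoattractant, was -4.80, and Hmox1, haem oxygenase 1, -3.40.

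Nuclear genes of oxidative phosphorylation differed little, those of glucose use more. Of 28 nuclear subunits of oxidative phosphorylation, 21 were lower in the flushed fraction, none by more than 2-fold, and 1, Sdha, was higher, with a median of -0.44. The median was -0.80 with library size alone and -0.93 with upper quartile scaling, so its size depended on the scaling. Of 11 mitochondrially encoded genes, 2 were lower, and left-over library 1 held the most mitochondrial counts, 0.951% of its total against 0.377 to 0.466% in the other 3 left-over libraries. Without it, 4 of the mitochondrial genes were called higher in the flushed fraction. Among 23 genes of glycolysis and glucose transport, 14 were lower and 6 higher, 6 and 4 of them by more than 2-fold. Of all genes tested, 38.0% were lower and 36.9% higher, 20.3% and 14.2% by more than 2-fold, so the 2-fold counts were near those of genes in general. Hk1 and Pfkfb3 were 1.75 and 1.96, and Slc2a4, the insulin-regulated transporter of muscle and fat, -5.11. Ldhb was -2.79, and Ldha did not pass, at 326 ± 22.7 against 367 ± 39.8, but was called lower without left-over library 2 (log2 fold change -0.25).

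Clock and stress genes depended on which left-over libraries stood for the wall. Of 18 clock genes, 11 were higher in the flushed fraction and 2 lower, against 36.9% and 38.0% of all genes tested. Nr1d1, the repressor REV-ERBalpha, had 86.1, 94.9, 167 and 137 CPM per kilobase in the flushed libraries and 20.6, 31.3, 10.0 and 20.3 in the left-over libraries. Dbp, a clock output factor, averaged 13.7 ± 12.9 against 1.35 ± 0.362. With the 2 left-over libraries titled Poldip2-floxed in place of the 4, and the same flushed libraries, the log2 fold change of Dbp went from 3.34 to -1.76, of Ciart from 2.23 to -1.85, and of Nr1d1 from 2.56 to 0.54. Of 16 chaperone and stress genes, 7 were lower and 2 higher with the 4 libraries and 1 lower and 6 higher with the other 2. Over all genes tested, 38.0% were lower and 36.9% higher with the 4 libraries, and 31.1% and 34.6% with the other 2. The 2 stress genes higher with the 4 libraries came to 1 when any library but flushed library 2 or 4 was left out. Hsph1, a heat shock protein, went from -0.09 to 3.06, and Hspa8 from -0.19 to 2.02. Flushed library 3 held 13278 CPM over the stress list, the most of the 4 flushed libraries, and the heat shock gene Hspa1b was at 120.2, 61.5, 614 and 27.7 in flushed libraries 1 to 4. Without flushed library 3 the log2 fold change of Hspa1b, which was not called, went from 1.10 to -0.39. Collection time and handling of the libraries are not given in the labels, and their part was not tested.

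Immediate early genes were mostly higher in the flushed fraction. Of 15 tested, 11 were higher, 6 by more than 2-fold (3 to 8 with 1 library left out), and none lower. Over all genes tested, 36.9% were higher, 14.2% by more than 2-fold, and 38.0% lower. Jun was at 89.5 ± 18.0 against 26.6 ± 4.41 CPM per kilobase, Atf3 at 38.5 ± 16.3 against 13.1 ± 3.37 and Ier3 at 43.8 ± 10.8 against 13.8 ± 2.14. Fos and Egr1 did not pass, at 10.7 ± 4.33 against 9.29 ± 0.810 and 28.1 ± 10.2 against 24.4 ± 27.3. Egr1 was at 11.97, 8.21, 65.2 and 12.2 in left-over libraries 1 to 4, and without library 3 of them it was called higher (log2 fold change 1.41). With the 2 left-over libraries titled Poldip2-floxed, 7 of the 15 were higher. Of 12 proliferation genes, 1 was higher and 1 lower, and without flushed library 4 there were 4 lower.

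The genes at the ends of the comparison, by the rule for named genes, came from several cell types. With Thbs1 and Vwf, the 12 highest were L1cam (5.49), Mmrn2 (5.42), Itgb4 (5.40), Ptprb (5.38), Notch4, Gpr116 (5.33), Gbp4 (5.31), Nos3, Dll1 and Podxl (5.21). L1cam, an adhesion molecule best known from neurons, was at 64.9, 62.0, 64.7 and 54.4 CPM per kilobase in the flushed libraries and 1.24, 0.823, 0.603 and 2.76 in the left-over libraries. Itgb4, the integrin chain of hemidesmosomes, was at 91.6 ± 11.97 against 2.16 ± 1.12. The 12 lowest were Fmod, Hspb7 (-6.95), Pex5l (-6.91), Rbp4 (-6.88), Susd5 (-6.79), Ndufa4l2 (-6.65), Ccl19 (-6.62), Ccl12 (-6.58), Tnfrsf11b (-6.42), Cnn1, Wisp2 (-6.36) and Thrsp (-6.34). Tnfrsf11b, osteoprotegerin, the decoy receptor that restrains bone resorption and vascular calcification, was at 0.369, 0.176, 0.389 and 0.338 in the flushed libraries and 25.3, 19.7, 34.3 and 29.6 in the left-over libraries. Rbp4, the retinol carrier made by liver and fat, was at 3.03 ± 1.91 against 351 ± 69.8.

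By abundance, the gene that stood highest in the lining was Cytl1, a small secreted cytokine-like protein. It had 10336, 9881, 10017 and 12329 CPM per kilobase in flushed libraries 1 to 4 and 430.2, 234, 171 and 998 in left-over libraries 1 to 4, with no overlap (log2 fold change 4.54, edgeR adjusted p = 1.6e-04). Clu, clusterin, was next at 4943 ± 274 against 336 ± 125. In the wall Cst3, cystatin C, at 6851 ± 644, Gsn, gelsolin, at 5328 ± 1246, Fth1, ferritin heavy chain, at 5041 ± 545, and Dcn led. Among noncoding RNAs the rule named Dlx6os1 (4.58), Malat1 (3.22), Neat1 (3.17) and Firre (2.81) as higher, with Atp10d, which the deposited table types as a processed transcript (3.53). Ptgs2os2 (-3.83), Adap2os (-3.42), Fcor (-3.32), Abhd11os (-3.16) and Has2os (-3.03) were the lowest. Antisense genes among these share their locus with a coding gene, and the sources used here do not say whether counting used strand.

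**Figure D4:**
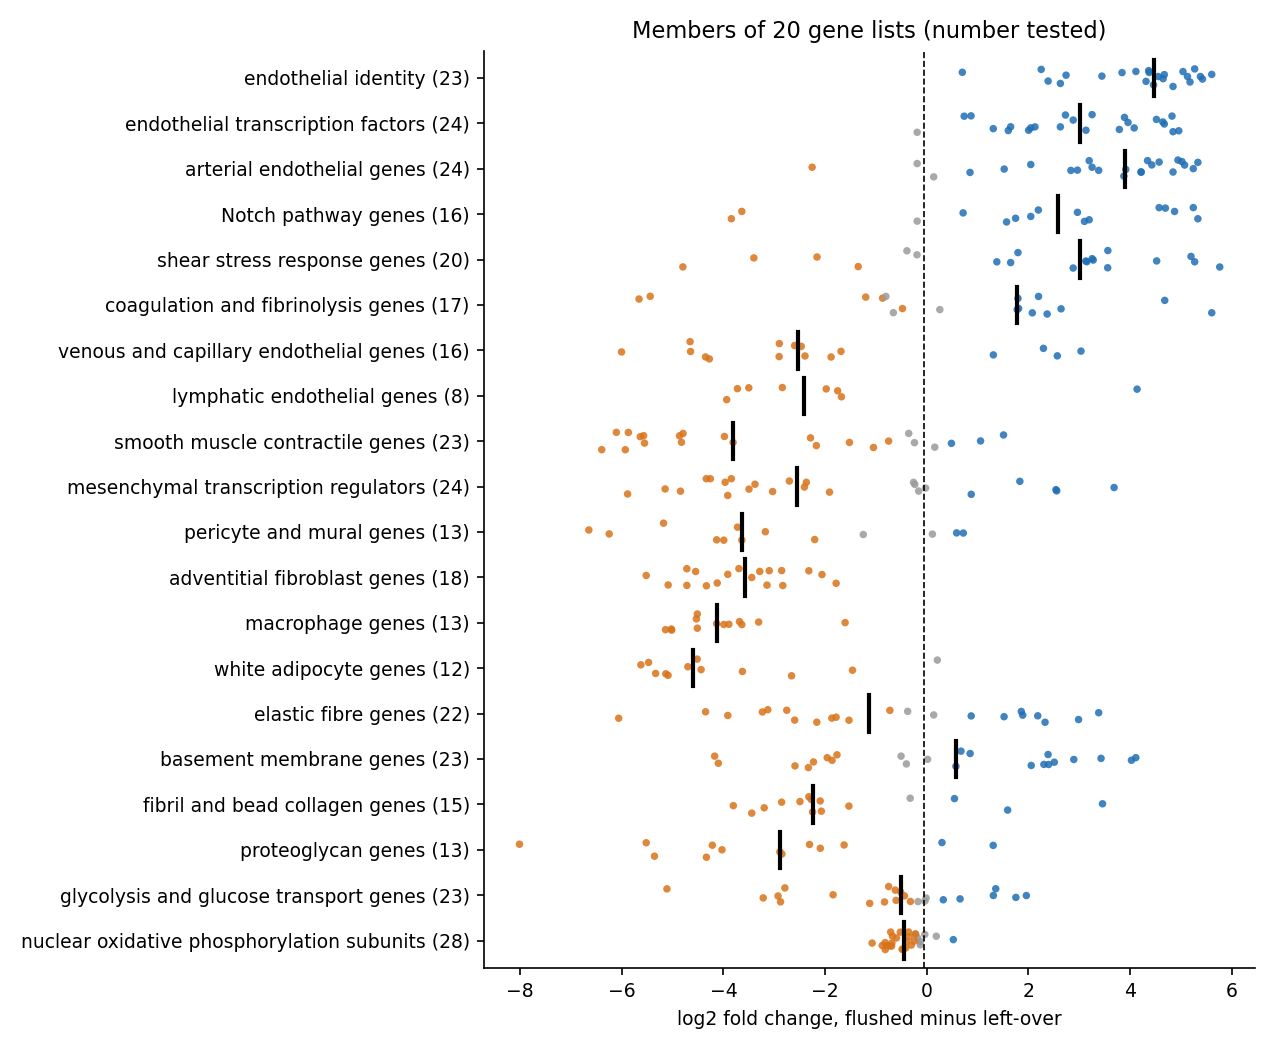
Log2 fold change, flushed minus left-over, of every tested member of 20 gene lists, 1 row a list, with a black bar at the list's median and a dashed line at the median of all 17881 genes (-0.05); blue and orange mark members called higher and called lower, and grey those not called. The endothelial identity and endothelial transcription factor lists lie on the right (medians 4.46 and 3.01). The venous and capillary list and the lymphatic list lie on the left (-2.53 and -2.41). Fibroblast, macrophage and white adipocyte lists are also on the left (-3.57, -4.13 and -4.61), and matrix lists on both sides.

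Most markers of tissues near the artery were low on both sides. The thyroid gene Tg, thyroglobulin, averaged 0.203 ± 0.240 against 1.44 ± 0.833 CPM per kilobase, with the most of the flushed group in flushed library 2 and a log2 fold change that went from -2.81 to -4.04 without it, and the skeletal muscle gene Acta1 averaged 0.554 ± 0.306 against 0.638 ± 0.218. Of 6 thyroid and parathyroid genes tested, 5 were lower in the flushed fraction, and none higher, and of 9 skeletal muscle genes 7 were lower and none higher. Of 8 neuronal genes 5 were lower and 3 higher, of 6 Schwann cell genes 2 and 1, and of 6 epithelial genes 4 and 1, where genes under 1 FPKM were lower in 58.8% of cases. The neuronal list summed to 45.7 to 49.2 CPM in the flushed libraries and 26.0 to 45.9 in the left-over libraries, and its higher genes were Tubb3, a beta-tubulin (2.29), Uchl1, a deubiquitinase (1.07), and the monoamine transporter Slc18a2 (0.72), whose call was lost without left-over library 3 or 4 (edgeR adjusted p = 0.0555 and 0.0562). The Schwann cell factor Sox10 and the muscle enzyme Ckm had too few counts to be tested. Ccl21a, a lymphatic chemokine with near-identical copies, had 718 counts in left-over library 4 and was not tested. Krt18, a keratin of simple epithelia also found in endothelium, was at 39.9 ± 9.78 against 3.34 ± 2.57.

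Promoters of the genes on either side differed in their letters, most clearly for genes lower in the flushed fraction. TATAAA, the core of the TATA box, was in 12.9% of all promoters matched and in 8.84% of the 12216 of genes tested. It was in 7.18% of those of genes more than 2-fold higher in the flushed fraction and in 14.4% of those more than 2-fold lower. Among genes at 10 FPKM or more in either group the share was 6.97%, with 7.64% of 1060 higher and 13.1% of 521 lower. CCGGAA, the core that ETS factors bind and that many housekeeping promoters hold, was in 18.9% of all and 24.4% of those of genes tested, with 23.0% of those higher and 9.25% of those lower. Among genes at 10 FPKM or more it was in 30.3%, with 23.1% of those higher and 12.1% of those lower, so both sides were below the share of that background. Both motifs were sought on both strands, and a match is a description of the letters alone. The promoter of Dpt is shown as 1 of 3 among 9 fibroblast genes with TATAAA; it is from RefSeq on GRCm38.p6, chr1:164796413-164796712, plus strand, with capitals on TATAAA, which begins 12 bases after the start annotated there.
Dpt promoter: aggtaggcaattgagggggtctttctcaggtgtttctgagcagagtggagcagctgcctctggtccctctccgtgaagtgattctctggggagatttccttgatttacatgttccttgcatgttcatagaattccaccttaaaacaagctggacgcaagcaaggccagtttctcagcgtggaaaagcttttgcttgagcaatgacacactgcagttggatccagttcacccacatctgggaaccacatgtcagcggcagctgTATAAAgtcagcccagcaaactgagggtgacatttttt
TGANTCA, the letters of the AP-1 site, was in 7.12% of all promoters and 5.93% of those of genes tested, with 5.77% of those higher and 8.35% of those lower.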

How the data were processed

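Total RNA from the flushed and left-over fractions of carotid arteries was sequenced, and the authors deposited 1 table of all 14 libraries. It holds read counts per gene, unnormalised per the file headers, beside FPKM values that the authors made from those counts (100.0% of nonzero values came out again from the counts, gene length and library total). It also holds the authors' own log2 fold changes, p-values and adjusted p-values for the smooth muscle control group against the endothelial control group, and the gene length in bases. The authors' group FPKM for the smooth muscle control equals the mean of the 4 left-over libraries titled Poldip2-SMC-/- in 14805 of the 14805 genes at 1 FPKM or more. The submitters' processing notes list TopHat, STAR 2.5, HTSeq 0.6.1, DESeq2, edgeR 3.16.5, STAR-Fusion and mm9 without roles. The gene starts in the table match GRCm38: of 34490 identifiers in GENCODE M21, 97.6% lie within 5 kb. No column belonged to other samples, and no pair of libraries agreed within sampling noise.

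Counts were tested with edgeR 4.0.16 in R 4.3.3: filterByExpr (minimum count 10, minimum total 15), TMM scaling, the robust quasi-likelihood fit of the 8 libraries of both groups alone with no covariate, and Benjamini-Hochberg adjustment over all 17881 genes. glmTreat tested a fold of 2. The fit recovered known changes in simulated counts in which few genes were changed, as many up as down. That setting cannot show how the scaling works where most genes differ, as in these data. A count of 3 corresponded to 0.129 to 0.200 CPM, which covers counting error only. The rule for named genes took, among genes past the 2-fold test, without overlap and at 10 FPKM or more in the higher group, the 12 highest and 12 lowest log2 fold changes. It also took the 5 highest and 5 lowest noncoding RNAs at 1 FPKM or more, and from each list, signalling axis or family the first members, the extremes and members against the main direction. The table marks no transcription factors, and some genes that the rule covers are not reported here. Other genes named were picked from the lists after their values were seen, and the members, lists and tests were chosen with earlier results of these data known. Promoters came from RefSeq (GRCm38.p6), which held 17631 genes of the table. DESeq2 1.42.0, other scalings, filters, fits, replicate blocks and left-out libraries were alternatives.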

Additional observations from a re-analysis of the deposited data

Results flagged for a closer look

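Among 620 groups of 4 values, one for each named gene or summed list in each fraction, 38 had a highest or lowest library set apart by a gap that, as a share of the group's range, passed Dixon's 95% critical value for 4 samples. Chance gives about 1 in 20, or 31.0, so the number as a whole is not far from that. Levels below are CPM per kilobase unless sums are named.

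Flushed library 3 stood highest for genes of fibroblasts, matrix and fat. The summed fibroblast list was 5676 CPM there against 3238 in the next flushed library. Col1a1 was 68.0 against 25.4 in the next, Fbln1 32.8 against 17.7, Wnt2 2.83 against 1.54, Fabp4 57.3 against 16.8, Slc2a4 0.384 against 0.121, Gsn 789.8 against 562 and Hspg2 57.4 against 42.6. The heat shock gene Hspa1b was 614 in the same library against 120.2.

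Flushed library 2 was highest for the thyroid gene Tg, 0.561 against 0.107. It was also highest for Cacna1c (0.348) and Kcnma1 (0.310), and its Abhd11os was 0, below the others. Flushed library 4 stood highest for Thbs1 (904), Gja5 (704) and Ace (622 against 410.5), for Col4a6 (0.476), and for the summed Schwann cell genes, 46.3 CPM against 15.5 in the next. Flushed library 1 was highest for Procr (379.8) and Synm (3.81).

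In the left-over group, library 1 held the most counts of mitochondrially encoded genes, 8332 CPM against 4145 in the next, and the most Ccl2 (18.2 against 5.88), Jag1 (5.40) and Itpr2 (2.28). Library 2 was highest for the summed skeletal muscle genes (50.2 CPM), Lyve1 (94.1), Fgfr4 (0.634) and Jag2 (0.281). Library 3 had the lowest sum of contractile genes, 11894 CPM against 14122 in the next. It also had the lowest Kdr (0.595) and Piezo1 (1.68) and the highest Egr1 (65.2 against 12.2) and Wnt5a (20.7 against 12.2). Library 4 was highest for Mfap4 (1062), Tpm2 (260.4) and Fli1 (8.64), and lowest for Loxl2 (1.45) and for the mast cell gene Tpsb2 (6.05 against 22.9).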

How the results depend on the processing

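Of the 13404 calls, 76.7% (when only genes at 1 FPKM or more were tested) to 99.8% were also called in the same direction under each alternative of scaling, filter, tool, library set or fit, and DESeq2 shared 13137. Genes that an alternative did not test count here as not kept. With the left-over libraries titled Poldip2-floxed the share was 80.1%, and 10737 of 10755 shared calls had the same direction. The counts that moved most did so with the scaling and the size tested. Genes higher came to 4138 under upper quartile scaling, against 6606. Those more than 2-fold higher, 2545 in all, came to 1660 with library size alone, 1444 with upper quartile scaling and 762 at a fold of 4. Those more than 2-fold lower, 3638, came to 1115 at a fold of 4 and to 2423 with the 2 left-over libraries titled Poldip2-floxed, and the cause was not tested. With 1 library left out, genes higher ranged from 6414 to 6768, genes lower from 6243 to 7389, those more than 2-fold higher from 2531 to 2729 and those more than 2-fold lower from 2825 (without left-over library 2) to 4691 (without flushed library 2). Poldip2 ranged from -0.473 to -0.284 with 1 library left out, was -0.290 with no filter on low counts (edgeR adjusted p = 0.108), and 0.890 with the left-over libraries titled Poldip2-floxed. The alternatives without the most receptor-rich library of each group and with genes at 1 FPKM or more were chosen after seeing the data.

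Of 5739 values for 274 named genes under an alternative, 5632 kept their call status, 52 lost and 42 gained a call. The 5632 include sign changes of genes called in neither fit, such as Hspa1b without flushed library 3. Another 13 changed sign with a call in at least 1 of the fits. With the left-over libraries titled Poldip2-floxed these were Ciart (-1.85), Dbp (-1.76), Pnpla2 (-0.82), Snai2 (-0.16), Srf (0.45), Hspa8 (2.02) and Hsph1 (3.06). With the flushed Poldip2-EC-/- libraries it was Fbln5 (-0.43), and with upper quartile scaling Flna (-0.34), Synm (-0.017) and Tagln2 (-0.10). Fgfr1 was -0.222 with library size alone and -0.346 with upper quartile scaling. Leaving out left-over library 4 moved the log2 fold change of Flt4 to 5.05, Tie1 to 5.63, Sox17 to 5.52, Sox18 to 5.42, Cytl1 to 5.29, Bmp6 to 5.56, Podxl to 5.82, L1cam to 6.14, Krt18 to 4.19 and Itga6 to 3.38. Leaving out flushed library 3 moved Mcpt4 to -6.35, Cma1 to -5.40, Tpsb2 to -5.92, Fabp4 to -5.42 and Slc2a4 to -5.80. Without flushed library 2, Gpihbp1 was -6.72, Bmpr1b -4.97, Ucp1 -4.66 and Adap2os -4.02, without left-over library 1 Ccl2 was -4.09 and Ucp1 -3.19, without left-over library 3 Thrsp was -5.68, and without flushed library 4 Dbp was 2.54.

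With the repeat number of the titles as a replicate block, 6684 genes were higher and 7050 lower, 2620 and 4244 by more than 2-fold, and Poldip2 was -0.402. With the number that 3 libraries of each group share in the column names as the block, 6246 were higher and 5855 lower, 2387 and 2439 by more than 2-fold, and Poldip2 was -0.416. Deviations from the group means of libraries with the same repeat number correlated at 0.002, 0.441, 0.120 and 0.223, and with the same name number at 0.044, 0.249 and -0.138, over a range of -0.363 to 0.441 for all 16 pairs. Some libraries correlated best with another number. With 4 libraries a group, these correlations cannot show whether a shared number pairs libraries, and the main fit assumed no pairing. Depth limits genes near 0.129 to 0.200 CPM.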
